A study of Homo sapiens with 12 samples.

Results

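DICER with alanine in place of an arginine, the mutant R821A, was compared with wild-type DICER in HCT116 cells, an established human colorectal carcinoma line. The comparison rests on 4 of the 12 small-RNA libraries of the series: 2 labelled as a rescue with DICER R821A and 2 as a rescue with wild-type DICER (WT), chosen by their titles, with every human miRNA entry of the tables as the features described. The other 8 libraries carry 4 other mutants, E5, A5, ΔPAZ helix and R821E, 2 libraries each, and are used for the estimate of spread and for direct comparisons with R821A. All 6 groups share the cell line, total RNA as the material and the rescue design. Age, dose or time are not part of it, and the labels leave out the state of the cells' own DICER1 gene, the promoter of the rescue construct and whether a line is 1 clone or a pool. The labels do not say what E5 and A5 stand for. Small RNA was sequenced by AQ-seq, a protocol designed to lower the bias of adapter ligation.

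DICER is the RNase III enzyme that cuts the loop from a precursor hairpin (pre-miRNA) in the cytoplasm. The cut frees a duplex of the 5p and the 3p strand, of which 1 is loaded into an Argonaute protein as the guide and the other is mostly lost. The let-7 family represses growth and stem-cell genes such as RAS, HMGA2 and LIN28, and the entry of its precursors into dicing is itself regulated, through LIN28 binding and uridylation of the precursor's 3′ end.

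The mature strands at the centre of the comparison are printed first, from RefSeq (GRCh38.p14), 5′ to 3′, with the seed (bases 2 to 8, the part that pairs with targets) in capitals. The 9 let-7 family guides, with miR-98-5p among them, share the seed GAGGUAG. They are shown because 6 of them fell in R821A and the other 3 did not pass the test, although the sequences are close: 4 pairs of members differ at 1 position and no pair at more than 6.
let-7a-5p: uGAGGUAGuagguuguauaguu
let-7d-5p: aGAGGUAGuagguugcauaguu
let-7e-5p: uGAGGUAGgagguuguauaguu
let-7f-5p: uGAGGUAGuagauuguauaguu
let-7i-5p: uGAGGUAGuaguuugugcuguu
miR-98-5p: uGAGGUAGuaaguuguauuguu
let-7b-5p: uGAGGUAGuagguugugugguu
let-7c-5p: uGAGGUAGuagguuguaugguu
let-7g-5p: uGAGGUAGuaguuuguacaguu
The first 6 lines are the members that fell, and the last 3 are those that did not pass. The other entries that fell have 5 further seeds, none shared with another entry of this set, and are shown for contrast with let-7, together with the 5p strand of the miR-31 hairpin, whose 3p strand rose.
let-7i-3p: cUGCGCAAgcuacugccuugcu
miR-185-5p: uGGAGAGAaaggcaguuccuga
miR-744-5p: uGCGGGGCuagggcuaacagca
miR-101-3p: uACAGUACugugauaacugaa
miR-25-3p: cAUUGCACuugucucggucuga
miR-31-5p: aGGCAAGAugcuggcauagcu

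In the GENCODE release 29 annotation the loci that the RefSeq table gives for these strands lie in introns of other genes, except let-7a-3 and let-7b, which overlap an exon of the non-coding MIRLET7BHG. let-7i is at chr12:62603691-62603712 (plus strand) in an intron of a non-coding transcript. miR-98 (chrX:53556299-53556320, minus strand) and the let-7f-2 copy lie in an intron of HUWE1, miR-185 (chr22:20033153-20033174, plus strand) in an intron of TANGO2, miR-744 (chr17:12081909-12081930, plus strand) in an intron of MAP2K4, and miR-25 (chr7:100093571-100093592, minus strand) in an intron of MCM7. The miR-31 hairpin, with its 5p strand at chr9:21512158-21512178 (minus strand), lies in an intron of MIR31HG.

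The 12 libraries held 144067 to 255296 miRNA counts, with 250755 and 247226 in WT and 255296 and 206580 in R821A. At the depth of these 4 libraries, 3 counts correspond to 11.8 to 14.5 CPM (counts scaled to a common library total), a limit for counting error only. Of 1346 miRNA entries, 374 passed the filter on low counts and were tested, and they held 99.6% of the counts. All 8 marker miRNAs of colon epithelium (the miR-200 family with miR-192, miR-194 and miR-215) were detected in WT or R821A. Their summed level was 2746 to 2967 CPM in WT and 2701 to 2950 in R821A. The single levels were uneven. With the TMM scaling described below, the WT means were 1089 CPM for miR-200b-3p and 904 for miR-200a-3p, but 34.6 for miR-200c-3p. The sum therefore does not show that each marker was well expressed. Of markers of other cells, the 4 of leukocytes summed to 295 and 443 CPM in WT and 421 and 537 in R821A, the 5 of fibroblasts and endothelium to 773 and 1105 against 842 and 893, the 3 of erythroid cells to 95.7 and 105 against 62.9 and 90.1, and miR-9-5p of neurons to 526 and 562 against 653 and 670. Of 4 muscle markers only miR-133a-3p was among the entries. Both miR-133a-3p and neuronal miR-124-3p had 0 counts, and miR-122-5p of hepatocytes stayed at 3.92 to 8.09 CPM. The part of other cell types in the results was not tested. Whether the 2 libraries of a group stem from different cultures is not in the labels, so a p-value here measures only how far these samples spread, and that spread may be technical. The 2 WT libraries differed more from each other than those of any other group, with a chi-square of 25.6 per degree of freedom against 9.87 in R821A. A chi-square grows with the counts. The SD of the log2 difference between replicates, over entries that average 100 CPM or more, was 0.593 in WT, 0.577 in E5 and 0.404 in R821A. By that measure WT stood only slightly above E5.

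Relative to the added spike-in sequences, both R821A libraries held fewer miRNA counts than both WT libraries. The values were 22.4 and 25.9 miRNA counts per spike-in count in WT and 17.6 and 21.5 in R821A, means of 24.2 ± 2.49 and 19.6 ± 2.73 (SD, n = 2). The groups did not overlap, but the gap between WT replicate 1 and R821A replicate 2 was smaller than the gap within either group. An exact permutation test of 2 libraries against 2 cannot go below p = 0.33, the value found here (two-sided). The other mutants also had means below that of WT, so a lower value was not particular to R821A. Their means were 17.1 ± 0.856 for E5, 18.5 ± 0.206 for A5, 19.2 ± 1.92 for ΔPAZ helix and 14.3 ± 1.38 for R821E. The 3p strands made up 27.5% and 24.9% of miRNA counts in WT and 27.2% and 24.03% in R821A. For miR-21-5p the shares were 37.7% and 43.2% in WT and 38.5% and 43.6% in R821A. Both shares overlapped and differed more within each group than between the group means (exact permutation p = 0.667 for both).

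The let-7 5p strands took a smaller part of the pool in R821A. Summed over the 9 entries they were 2.64% and 3.21% of miRNA counts in WT and 1.63% and 1.78% in R821A. Per spike-in count they were 0.592 and 0.832 in WT and 0.288 and 0.382 in R821A. Both scales kept the groups apart, and the exact permutation p was again 0.33, the smallest the design allows.

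Single entries are given on 2 scales. The TMM scale adjusts libraries by the trimmed mean of M values and so reports an entry relative to the bulk of the other miRNAs. The spike-in scale divides by the summed spike-in counts. The median log2 fold change of R821A against WT over all 374 entries was -0.02 with TMM and -0.35 with the spike-ins. Where no scale is named below, a rise or fall is on the TMM scale, hence against the other miRNAs.

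Few entries passed the test in R821A against WT. On the TMM scale 12 entries passed the edgeR quasi-likelihood test at an adjusted p under 0.05 (Benjamini-Hochberg over all tested), 3.21% of those tested: 1 rose (0.267%) and 11 fell (2.94%). The falls were 6 let-7 family guides, 1 let-7 passenger strand and 4 other miRNAs, and the rise was miR-31-3p. On the spike-in scale 16 fell (4.28%) and 0 rose, with 73 entries at an unadjusted p under 0.05. All 11 falls were called on both scales, while miR-31-3p was not called on the spike-in scale.

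**Figure D1:**
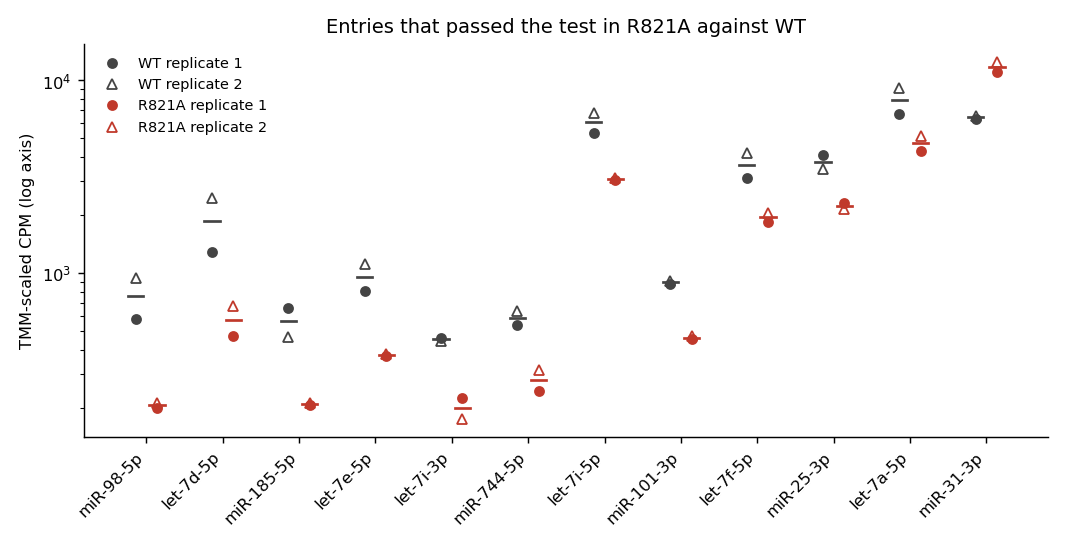
TMM-scaled CPM (log axis) of the 12 entries that passed the test, in each WT (dark grey) and R821A (red) library; filled circles are replicate 1, open triangles replicate 2 and bars the mean of the 2. For 11 entries both R821A libraries lie below both WT libraries, as with let-7i-5p at 3060 and 3125 against 5363 and 6744, and for miR-31-3p both lie above.

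Among let-7 guides, let-7i-5p had the smallest adjusted p. Its level was 5363 and 6744 CPM in the WT libraries and 3060 and 3125 CPM in the R821A libraries. The WT libraries differed by more than the R821A libraries did, and the groups did not overlap. The log2 fold change was -0.97 ± 0.141 (SE; edgeR, adjusted p = 0.00161) and -1.31 ± 0.176 on the spike-in scale (edgeR, adjusted p = 8.32e-04).

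miR-98-5p, which carries the let-7 seed on an X-linked precursor, had the largest fold of the falls. It was at 581 and 942 CPM in WT and 201 and 212 CPM in R821A, that is 167 and 246 against 57 and 46 counts. WT replicate 2 was the highest, and the lower WT library still stood far above both R821A libraries. The log2 fold change was -1.88 ± 0.302 (edgeR, adjusted p = 0.00233).

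let-7d-5p followed, at 1291.2 and 2459 CPM in WT and 471 and 673 CPM in R821A (-1.72 ± 0.275, edgeR, adjusted p = 0.00233). let-7e-5p was at 811 and 1111 CPM in WT and 373 and 383 CPM in R821A (-1.34 ± 0.239, edgeR, adjusted p = 0.0043). For both, the groups were apart and WT replicate 2 was the highest library. let-7f-5p was at 3115 and 4193 CPM in WT and 1850 and 2065 CPM in R821A (-0.90 ± 0.170, edgeR, adjusted p = 0.00613). let-7a-5p was at 6672 and 9103 CPM in WT and 4281 and 5154 CPM in R821A (-0.74 ± 0.168, edgeR, adjusted p = 0.0212). In these members too WT replicate 2 stood above WT replicate 1 and R821A replicate 2 above R821A replicate 1.

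The remaining let-7 guides did not pass. let-7g-5p was at 2391 and 2378 CPM in WT and 1921 and 2489 CPM in R821A, a log2 fold change of -0.11 ± 0.193 (edgeR, adjusted p = 0.899). let-7b-5p was at 2746 and 3389 CPM in WT and 2441 and 2794 CPM in R821A (-0.23 ± 0.153, edgeR, adjusted p = 0.665). Both are as well counted as the members that fell, and in both the groups overlapped. let-7c-5p had 22 and 12 counts in WT and 18 and 6 in R821A, too few to place a change (-0.39 ± 0.447, edgeR, adjusted p = 0.866).

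Over the whole set, 6 of 9 let-7 guides fell and none rose, against 2.94% of all tested entries that fell. The median log2 fold change of the 9 was -0.90, beside -0.02 for all tested entries, and it was negative with DESeq2 size factors (-0.87), total counts (-0.92) and the spike-in scale (-1.24). The sources used here do not say how reads shared between family members were counted, so a fall of 1 member can be partly that of a near-identical neighbour. The precursor of let-7e is known to end in a form that needs no uridylation before dicing. Those of let-7b, let-7g and let-7i, among others, end in a form that takes up a single uridine. Of the guides named here let-7e-5p and let-7i-5p fell, and let-7b-5p and let-7g-5p did not pass. The precursors of the other guides that fell are not sorted by form here. These examples therefore do not show how either form fared as a class. Whether the form of the precursor bears on the falls was not tested.

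**Figure D2:**
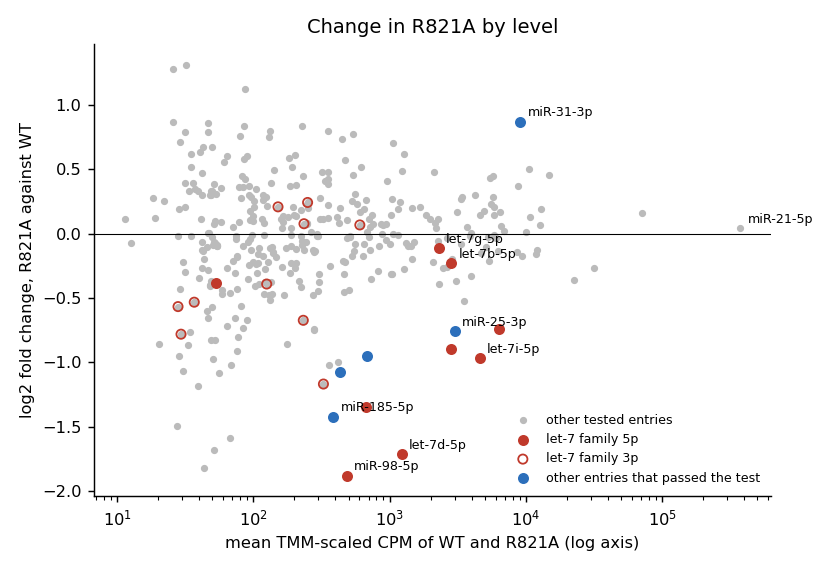
Log2 fold change of R821A against WT on the TMM scale (vertical axis) by the mean level of the 2 groups (horizontal log axis, CPM) for the 374 tested entries. Red discs are let-7 family 5p strands, open red circles let-7 3p strands and blue discs the other entries that passed. The red discs other than let-7b-5p, let-7g-5p and the thinly counted let-7c-5p lie between -0.74 and -1.88, and miR-31-3p at 0.87 is the highest of the well-counted entries at the right.

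Among the 3p strands of let-7 hairpins 1 was called. let-7i-3p was at 463 and 444 CPM in WT and 225 and 175 CPM in R821A (-1.17 ± 0.238, edgeR, adjusted p = 0.00918), so both strands of the let-7i hairpin fell. Over the 10 tested let-7 3p entries the median was -0.46. let-7a-3p (0.07) and let-7b-3p (0.08) had values above 0 on the TMM scale, where the groups overlapped, and below 0 on the spike-in scale (-0.26 each). let-7d-3p had a log2 fold change of -0.67 ± 0.380 (edgeR, adjusted p = 0.587), beside -1.72 for its guide.

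Outside let-7, 4 miRNAs fell. miR-185-5p, from an intron of TANGO2, was at 658 and 467 CPM in WT and 208 and 212 CPM in R821A (-1.42 ± 0.249, edgeR, adjusted p = 0.0043). miR-744-5p was at 539 and 636 CPM in WT and 246 and 313 CPM in R821A (-1.07 ± 0.273, edgeR, adjusted p = 0.0487), the largest adjusted p of the 12. The other 2 are better known regulators. miR-101-3p, a repressor of the histone methyltransferase EZH2, was at 881 and 915 CPM in WT and 457 and 470 CPM in R821A (-0.95 ± 0.183, edgeR, adjusted p = 0.00613). miR-25-3p, of the miR-106b~25 cluster, was at 4086 and 3469 CPM in WT and 2308 and 2162 CPM in R821A (-0.76 ± 0.145, edgeR, adjusted p = 0.00613). For miR-101-3p the gap between groups was far wider than within either, and for miR-185-5p and miR-25-3p it was WT replicate 1, not 2, that stood highest.

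The calls depended on the fit. When only the 4 libraries compared were fitted, 0 of 356 entries passed edgeR, with 28 at an unadjusted p under 0.05. With all groups and without R821A replicate 1, 2 calls were left, let-7i-5p and miR-31-3p, and without R821A replicate 2 there were 6. Without WT replicate 2 there were 13 calls, and let-7a-5p and miR-744-5p were no longer among them. Without WT replicate 1 there were 17, with all 12 among them.

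Neighbours of 2 of the falling miRNAs, which lie within 10 kb on the same strand, did not pass the test. let-7e shares its cluster with miR-99b and miR-125a at 137 to 513 bases. There miR-99b-5p had a log2 fold change of -0.20 ± 0.206 (edgeR, adjusted p = 0.851) and miR-125a-5p of 0.07 ± 0.290 (adjusted p = 0.952), beside -1.34 for let-7e-5p. miR-25 lies within 472 bases of the strands of miR-93 and miR-106b. miR-93-5p had -0.27 ± 0.164 (edgeR, adjusted p = 0.623) and miR-106b-5p 0.05 ± 0.150 (adjusted p = 0.949), beside -0.76 for miR-25-3p. In the cluster of let-7a-1, let-7f-1 and let-7d the guides of all 3 fell, though let-7a-5p and let-7f-5p also come from other loci. miR-100-5p, near let-7a-2, had 0.45 ± 0.133 (edgeR, adjusted p = 0.0949). The differences between neighbours were not tested.

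miR-31-3p was the 1 entry that rose. This strand comes from the hairpin of miR-31-5p, an abundant miRNA of these cells. It was at 6334 and 6518 CPM in WT and 11010 and 12488 CPM in R821A, from 1820 and 1702 against 3130 and 2709 counts. The groups were far apart compared with their spread, and the log2 fold change was 0.87 ± 0.124 (edgeR, adjusted p = 0.00161). On the spike-in scale the libraries were at 163 and 179 counts per 1000 spike-in counts in WT and 216 and 282 in R821A, still without overlap (0.54 ± 0.154, edgeR, adjusted p = 0.0666). On that scale it passed with TMM factors computed on the spike-ins (0.61, adjusted p = 0.0391), without R821A replicate 1 (0.72, adjusted p = 0.0342) and with no filter (0.54, adjusted p = 0.0491). It did not pass without R821A replicate 2 (0.34, adjusted p = 0.278), without WT replicate 1 (0.48, adjusted p = 0.134), without WT replicate 2 (0.61, adjusted p = 0.0977), with a replicate block (0.54, adjusted p = 0.0992) or with only the libraries compared (0.54, adjusted p = 0.376).

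The 5p strand of the same hairpin did not rise with it. miR-31-5p was at 43369 and 26147 CPM in WT and 31187 and 26686 CPM in R821A, with overlapping groups and a log2 fold change of -0.26 ± 0.221 (edgeR, adjusted p = 0.764). The log2 ratio of 5p to 3p counts, in which any scaling of a library cancels, was 2.78 and 2.00 in WT and 1.502 and 1.10 in R821A. The ratio was lower in both R821A libraries than in both WT libraries, although WT replicate 2 lay nearer to R821A replicate 1 than to its own partner. The shift toward 3p was -1.09 ± 0.253 (limma, adjusted p = 0.0900 over 69 hairpins). It passed when only the 15 hairpins whose arms each average 100 counts or more were tested (limma, adjusted p = 0.0220). It did not pass with a pseudocount of 5 (limma, adjusted p = 0.0707), a replicate block (adjusted p = 0.126) or only the libraries compared (adjusted p = 0.279). With 1 library left out the shift was -1.48 without WT replicate 2 and -0.71 without WT replicate 1. It was -1.29 without R821A replicate 1 and -0.89 without R821A replicate 2.

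**Figure D3:**
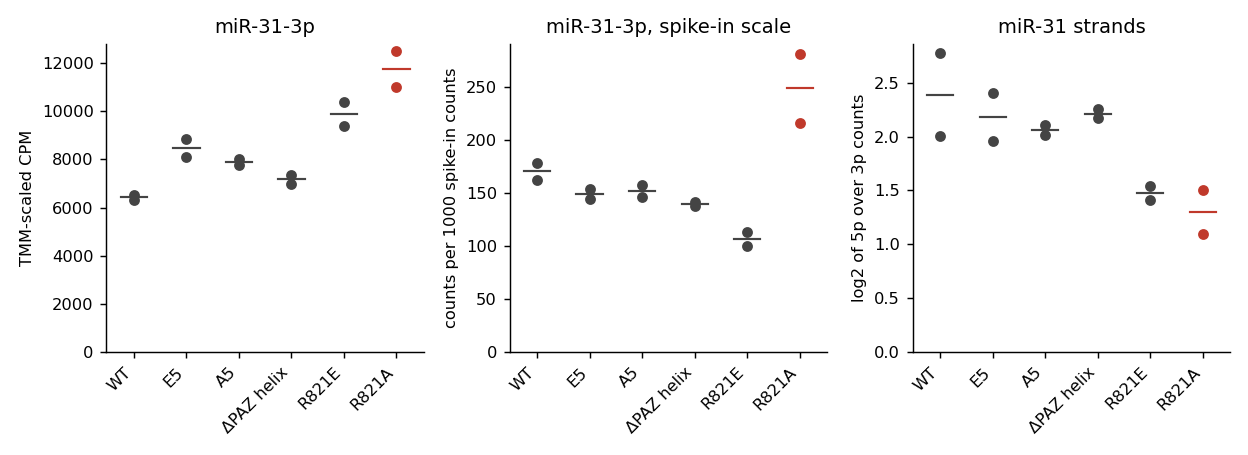
miR-31 in the 12 libraries by group, R821A in red, each point a library and each bar the mean of 2: TMM-scaled CPM of miR-31-3p (left), its counts per 1000 spike-in counts (middle) and the log2 ratio of 5p to 3p counts of the hairpin (right). Both R821A libraries are highest in the left and middle panels, at 11010 and 12488 CPM and 216 and 282 per 1000 spike-in counts, while the ratio in R821A (1.502 and 1.10) overlaps that in R821E (1.41 and 1.54).

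No hairpin passed the arm test as a whole. Of 69 hairpins whose arms each averaged 20 counts or more, 0 (0%) changed their 5p to 3p ratio by limma at an adjusted p under 0.05, and 8 had an unadjusted p under 0.05. The median shift was -0.03. Besides miR-31, the hairpins that leaned most toward 3p were miR-324 (-1.23), let-7d (-1.05) and miR-30a (-0.85), and those that leaned most toward 5p miR-101 (0.96), miR-126 (0.87), miR-221 (0.76) and miR-550a (0.61). In the smaller set of 15 well-counted hairpins 4 passed: let-7a (-0.83), miR-1307 (-0.60) and miR-31 toward 3p and miR-29a (0.41) toward 5p. Strands were paired by name, and let-7a-5p comes from 3 loci but let-7a-3p from 2. The let-7a ratio is therefore not the ratio within 1 hairpin. miR-221 is a case where the spread hides any shift, with log2 ratios of -3.37 and -1.61 in WT and -2.35 and -1.11 in R821A.

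Of the 5 most abundant entries in WT, none passed on the TMM scale. miR-21-5p was at 328978 and 409012 CPM in WT and 346135 and 415064 CPM in R821A (0.04 ± 0.158). miR-222-3p (0.16 ± 0.135), miR-31-5p (above) and miR-27a-3p (-0.13 ± 0.218) overlapped between the groups. miR-221-3p, which represses CDKN1B, an inhibitor of the cell cycle, was at 26987 and 23758 CPM in WT and 20856 and 18623 CPM in R821A, a value of -0.36 ± 0.141 that did not pass on the TMM scale (edgeR, adjusted p = 0.282) and fell on the spike-in scale (-0.70 ± 0.146, adjusted p = 0.0109).

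The spike-in scale added 5 falls to the 11, namely miR-221-3p, miR-1307-5p (-0.74), miR-374b-5p (-1.35), miR-324-5p (-1.34) and miR-2110 (-2.02). miR-374b-5p lay just outside the threshold on the TMM scale, at 463 and 502 CPM in WT and 197 and 281 CPM in R821A (-1.02 ± 0.266, edgeR, adjusted p = 0.0551). miR-2110 rests on 43 counts in WT and 12 in R821A, a ratio of 0.301 scaled to total counts (95% exact counting interval 0.144 to 0.581, which leaves out the spread between replicates).

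Above 0, the 8 largest values among entries that reach 100 CPM in a group and do not overlap were those of miR-31-3p and of 7 entries that did not pass: miR-3687 (1.13), miR-4517 (0.84), miR-449a (0.84), miR-30a-3p (0.80), miR-940 (0.80), miR-6724-5p (0.78) and miR-550a-5p (0.75). Their adjusted p-values ran from 0.0735 for miR-6724-5p to 0.517 for miR-449a (edgeR). Absence of overlap alone was common: both R821A libraries lay above both WT libraries for 71 entries (19%) and below for 66 (17.6%). Below 0, miR-3187-3p (-1.59 ± 0.619, edgeR, adjusted p = 0.282) was the other large value that did not pass.

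The other miRNA families are described by their counts, to be read beside the 2.94% of all tested entries that fell and the 0.267% that rose, since a count near those shares says nothing about a family. In the miR-17~92 cluster and its paralogues, which promote proliferation, 1 of 20 tested entries fell (miR-25-3p) and the median was -0.12, with miR-17-5p at -0.02 and miR-92a-3p at -0.14. On the TMM scale no entry was called among the 6 of the epithelial miR-200 family (median -0.02), 11 of the miR-15/16 family (-0.08), 11 of the miR-23/27/24 clusters (0.18), 4 of miR-221 and miR-222 (0.22), 10 of miR-30 (0.08), 7 of miR-29 (0.17), 7 of miR-181 (0.12), 6 of the cluster of miR-183, miR-96 and miR-182 (0.10), 5 of miR-26 (-0.10) and 4 of miR-148 and miR-152 (-0.09). The same held for 3 entries of miR-103 and miR-107 (-0.37), 9 of miR-130, miR-301 and miR-454 (-0.11) and 5 of the p53-induced and intestinal set (-0.11). The 11 entries of the miR-10, miR-99, miR-100 and miR-125 families had the highest median, 0.37, and both R821A libraries lay above both WT libraries for 5 of them, beside 19% of all tested entries, among them miR-10a-5p (0.50 ± 0.147, edgeR, adjusted p = 0.0949). The positive medians in this paragraph turned negative on the spike-in scale, except that of the miR-10, miR-99, miR-100 and miR-125 families (0.05).

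No entry passed among those of other routes or sources. With so few entries this says little beside the 2.94% of all tested entries that fell. Of the sets below only miR-451a is listed as independent of DICER. miR-451a, which AGO2 matures without DICER, had a log2 fold change of -0.11 ± 0.270 (edgeR, adjusted p = 0.931). Of 6 tested entries from mirtrons and from hairpins capped at the start of transcription, none was called, with miR-320a at -0.22, miR-484 at 0.08 and miR-877-5p at -0.12. Of 11 entries overlapping snoRNA, tRNA or rRNA, none was called and the median was 0.19 (-0.16 on the spike-in scale), with miR-4454 at 0.48.

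The WT libraries enter every fold change above, so R821A was also compared with the mean of E5, A5 and ΔPAZ helix. No WT library is part of these contrasts, but the WT libraries stayed in the fit that set the filter, the scaling and the spread. Here 1 of 374 entries passed (0.267%), miR-31-3p, which was higher in R821A by 0.58 ± 0.0972 (edgeR, adjusted p = 0.0134). Its level was 11749 ± 1045 CPM in R821A, 9881 ± 688 CPM in R821E, 8484 ± 531 CPM for E5, 7888 ± 167 CPM for A5 and 7180 ± 261 CPM for ΔPAZ helix (SD, n = 2), and every R821A library stood above every other library. On the spike-in scale 6 entries were higher (1.6%) and 0 lower: miR-31-3p (0.76), miR-221-3p (0.53), miR-222-3p (0.59), miR-222-5p (0.55), miR-361-3p (1.26) and miR-3200-3p (2.05). The call of miR-31-3p on the TMM scale was lost without R821A replicate 1 (0.68, adjusted p = 0.061) and without R821A replicate 2 (0.51, adjusted p = 0.238).

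None of the 11 falls was lower in R821A than in those mutants at the threshold. Of the 11 values 10 were below 0, and 7 had an unadjusted p under 0.05. Over all 374 tested entries 36 had such a p, in either direction, and the median was itself below 0. The 11 were picked for low levels in the same R821A libraries, so values below 0 are partly built in by that choice. let-7d-5p had -0.92 ± 0.235 (edgeR, adjusted p = 0.124), let-7a-5p -0.47 ± 0.140 (adjusted p = 0.218) and let-7i-5p -0.35 ± 0.117 (adjusted p = 0.229). All 9 let-7 guides had values below 0, with a median of -0.43, beside -0.04 over all tested entries. miR-25-3p (0.00 ± 0.119), miR-185-5p (-0.14 ± 0.216) and miR-744-5p (-0.15 ± 0.234) had values near 0 there.

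Set beside WT, with the WT libraries shared by all comparisons, the other mutants were also low for most of these entries. Of the 11 falls, both libraries lay below both WT libraries for 11 with E5 (23.8% of all tested entries), 10 with A5 (19.5%), 11 with R821E (39.8%) and 8 with ΔPAZ helix (20.9%). miR-98-5p was at 206.3 ± 8.16 CPM in R821A, 229 ± 75.3 for E5, 291 ± 42.6 for A5, 308 ± 58.3 for ΔPAZ helix and 356 ± 86.6 for R821E, beside 762 ± 255 in WT. let-7i-5p was at 2982 ± 228 CPM in R821E, 3093 ± 46.0 in R821A, 3138 ± 120 for E5, 4018 ± 216 for A5 and 4882 ± 216 for ΔPAZ helix, and R821A did not lie outside the libraries of R821E and E5.

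**Figure D4:**
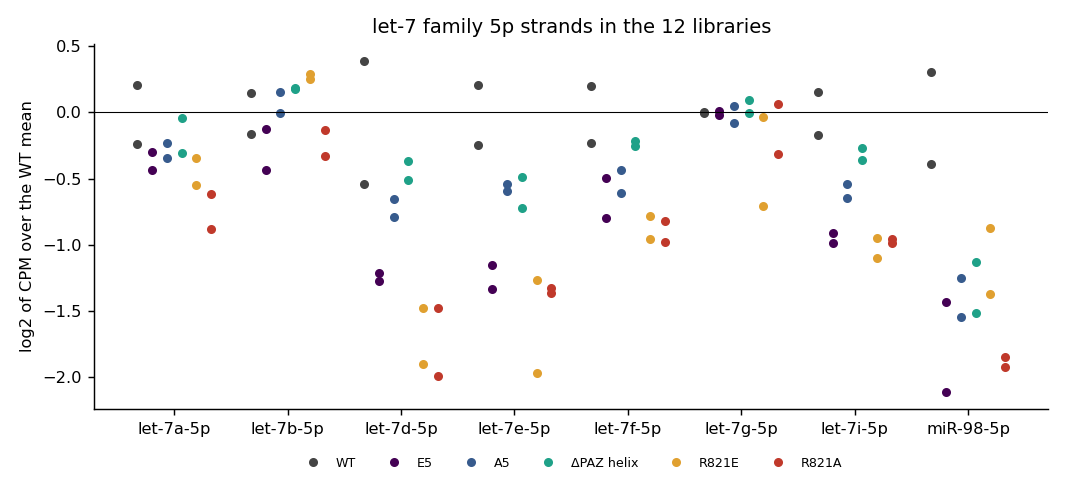
Log2 of the TMM-scaled CPM over the WT mean for 8 let-7 family 5p strands (let-7c-5p, with at most 22 counts in WT and R821A libraries, is left out) in the 12 libraries, coloured by group. All mutant libraries lie below 0, the WT mean, for let-7i-5p, let-7e-5p, miR-98-5p and let-7d-5p, whereas for let-7g-5p and let-7b-5p the R821A libraries overlap those of WT.

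R821E replaces the same arginine by glutamate, a charged residue, where R821A has the small uncharged alanine. Between R821A and R821E 155 of 374 entries differed (41.4%), 73 higher in R821A (19.5%) and 82 lower (21.9%). With total counts as library size the split was 132 higher and 19 lower, and the median of all entries moved from 0.07 to 0.59. Of the 11 falls, 2 were higher in R821A than in R821E and 0 lower, a share close to that of all tested entries. miR-25-3p was at 582 ± 24.8 CPM in R821E and 2235 ± 102.9 in R821A (1.94 ± 0.160, edgeR, adjusted p = 4.15e-06). miR-185-5p was at 71.5 ± 2.91 and 210 ± 3.19 CPM (1.54 ± 0.3328, edgeR, adjusted p = 0.00311). The let-7 guides that fell in R821A did not differ between the 2 mutants at the threshold on the TMM scale: let-7i-5p had 0.05 ± 0.142, let-7f-5p -0.04 ± 0.172, let-7d-5p -0.06 ± 0.288, let-7a-5p -0.30 ± 0.168, let-7e-5p 0.25 ± 0.263 and miR-98-5p -0.77 ± 0.325 (edgeR, adjusted p = 0.0712 for the last). With total counts 3 of these guides were called higher in R821A (edgeR): let-7i-5p (0.57, adjusted p = 0.00748), let-7e-5p (0.76, adjusted p = 0.0378) and let-7f-5p (0.49, adjusted p = 0.0244, with a change of sign). let-7a-5p (0.22) and let-7d-5p (0.47) also changed sign there and did not pass. let-7b-5p was lower in R821A than in R821E (-0.50 ± 0.155, edgeR, adjusted p = 0.0206), but at 0.014 with total counts (adjusted p = 0.947), and the call was lost without R821A replicate 1 (-0.42, adjusted p = 0.130). With these errors the values that did not pass do not show that the mutants act alike. Per spike-in the same guides other than miR-98-5p were higher in R821A, as with let-7i-5p (1.02, edgeR, adjusted p = 3.15e-04). The whole pool was higher too, with 19.6 ± 2.73 miRNA counts per spike-in count in R821A and 14.3 ± 1.38 in R821E (SD, n = 2). Values against R821E on the spike-in scale include that difference and are not shown to be particular to let-7. miR-31-3p differed by 0.25 ± 0.123 on the TMM scale (edgeR, adjusted p = 0.117), by 1.22 on the spike-in scale (adjusted p = 2.75e-05) and by 0.77 with total counts (adjusted p = 4.26e-04).

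**Figure D5:**
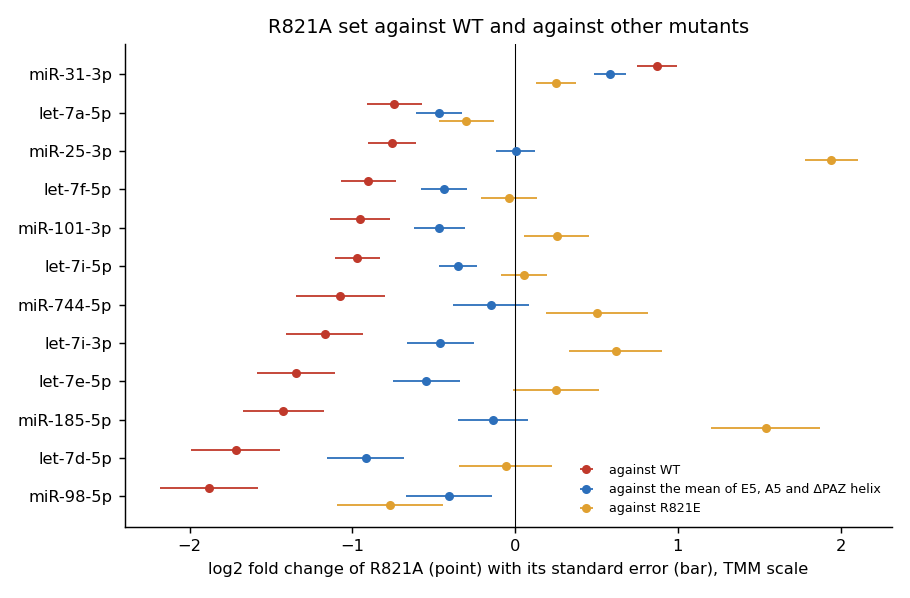
Log2 fold change of R821A on the TMM scale, with its standard error as the bar, against WT (red), against the mean of E5, A5 and ΔPAZ helix (blue) and against R821E (yellow) for the 12 entries that passed against WT. Against the 3 mutants miR-31-3p at 0.58 is the entry that passed, while against R821E miR-25-3p at 1.94 and miR-185-5p at 1.54 stand to the right.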

How the data were processed

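The authors deposited unnormalised read counts, 1 whole number for each entry and library. Per the submitters' processing notes, cutadapt, BWA and bedtools were used with the builds hg38 and mm10, and the sources used here do not give versions, roles or the treatment of reads that match several entries. Per the labels' protocols, total RNA was extracted with TRIzol and the libraries were sequenced on a NovaSeq platform.

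Library sizes and tests leave out the 30 spike-in entries. Counts were tested with edgeR 4.0.16 in R 4.3.3 (quasi-likelihood test with robust steps, factors from the trimmed mean of M values or TMM, low entries filtered with filterByExpr). The 12 libraries entered 1 fit, which has 6 residual degrees of freedom. Benjamini-Hochberg adjustment covered every tested entry, and the threshold was 0.05. CPM are scaled by TMM, except marker sums. The spike-in scale used the summed spike-in counts as library size. Arm ratios were tested with limma 3.58.1 (trend, robust) on log2 of (5p + 0.5)/(3p + 0.5). An SE of an edgeR fold was derived from its F statistic. Both fits were tested on simulated data. Replicates were checked for copies: the chi-square of their counts exceeded sampling noise in every group (3.83 to 25.6 per degree of freedom).

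Sequences and loci came from RefSeq, where 331 of the 374 tested entries matched, and host genes from GENCODE release 29. The libraries, lists and tests were chosen with earlier results of these data known. Named entries are those called on either scale, the 5 highest in WT, the 8 largest non-overlapping values each way among entries that reach 100 CPM in WT or R821A, the let-7 guides, examples of each list in order of level, and the 4 largest arm shifts each way. Alternatives were DESeq2 1.42.0, other scalings, filters and pseudocounts, a fit restricted to the libraries compared, a block for the replicate number, and leaving out each library.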

Additional observations from a re-analysis of the deposited data

Results flagged for a closer look

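For 3 of the 12 entries called against WT, R821A also differed from other mutants by a direct test. miR-31-3p was higher in R821A than in the mean of E5, A5 and ΔPAZ helix by 0.58 on the log2 scale (edgeR, adjusted p = 0.0134), in both R821A libraries against all 6 others. miR-25-3p (1.94, adjusted p = 4.15e-06) and miR-185-5p (1.54, adjusted p = 0.00311) were higher in R821A than in R821E, in both libraries against both, and these 2 differences were also called on the spike-in scale (2.90 and 2.49). Between R821A and R821E 41.4% of all tested entries differed and 19.5% were higher in R821A, so the 2 higher entries among the 11 falls are near that share. Against E5, A5 and ΔPAZ helix neither passed (0.00 for miR-25-3p and -0.14 for miR-185-5p), so these 2 differences are with R821E and are not shown to be particular to R821A.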

How the results depend on the processing

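Against WT, the 12 calls became 0 when only the 4 libraries compared were fitted, 28 when a replicate block was added to that smaller fit (chosen after seeing the data, with all 12 among them) and 2 to 17 with 1 library left out, where a lone library is assumed to vary like the other groups. DESeq2 called 15 with all 12 among them. In the fit over all libraries the replicate block left 12 calls on the TMM scale, 16 on the spike-in scale, 1 against E5, A5 and ΔPAZ helix and 0 in the arm ratio. Deviations of same-numbered WT and R821A libraries from their group means had r = 0.56 over 250 entries, but r was -0.64 between WT and E5, so the numbers are not shown to pair libraries. The 16 spike-in calls became 26 with no filter, 0 with only the libraries compared and 10 to 25 with 1 library left out. The call against E5, A5 and ΔPAZ helix became 0 without either R821A library and 6 on the spike-in scale; against R821E, 155 became 94 to 111, and total counts split them into 132 higher and 19 lower. The arm calls became 4 among well-counted hairpins and 0 to 1 with 1 library left out. Against R821E, let-7b-5p (-0.50, called) turned to 0.014 and let-7f-5p (-0.04) to 0.49 (then called) with total counts. The cause of these changes was not tested. Over 12 alternatives miR-31-3p and let-7i-5p were called in 11 each and miR-744-5p in 6. Depth limits entries such as let-7c-5p and miR-2110.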

Other observations

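Most of the falls came from longer precursors, with length counted from the first base of the 5p to the last base of the 3p strand in the RefSeq table. Of the 245 tested entries with a single precursor class, 66 come from precursors of 63 to 86 bases, and these hold 7 of the 10 falls in this set, with a median log2 fold change of -0.12. Without let-7, 49 long entries are left, with 1 fall and a median of -0.09, beside 0.00 for the 82 entries from precursors of 52 to 59 bases. The medians by the first base of the 5p strand were -0.07 for A (64 entries), -0.09 for U (115), 0.05 for G (27) and 0.12 for C (39). Without let-7 these medians were -0.04, -0.05, 0.05 and 0.12. The 10 falls came from precursors that begin with U (8) or A (2), as those of most of the 245 entries do. Without let-7, 3 falls with U and 1 with A are left. Both strands of the let-7i precursor count among the 10. let-7f-5p counts there by its let-7f-1 precursor of 78 bases alone, although it also comes from let-7f-2, whose length was not taken. These are descriptions of entries that share libraries, with no test.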
